A study of Bos taurus with 8 samples.

Results

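The regulators described here are 10 of the 24596 genes counted in the RNA-Seq libraries: the Friend of GATA cofactors *ZFPM1* and *ZFPM2*, the GATA factors *GATA2*, *GATA3* and *GATA6*, the teashirt genes *TSHZ1*, *TSHZ2* and *TSHZ3*, and the nuclear receptor interacting protein genes *NRIP1* and *NRIP3*. They were selected on measured values, because *ZFPM2*, *TSHZ2* and *NRIP3* stood among the regulators with the largest excess in the superficial zone in these same libraries. The other 7 were added as relatives, partners or genes of like name. Differences between the zones are therefore given for all 10 as a description and were not used as evidence. Chondrocytes were isolated from the superficial zone (SZCs) and the deep zone (DZCs) of knee cartilage of wild type calves 1 to 2 weeks old, cultured for 3 days in medium with fetal bovine serum, and sequenced in 2 libraries per zone. Each cartilage core gave a superficial and a deep slice, with the middle zone discarded, and slices of a zone were pooled by joint. The study calls its duplicates biological, but whether they came from separate calves is not given in the sources used here, so p-values below measure only the spread between these libraries.

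GATA factors bind DNA through zinc fingers and set cell fates in blood, endothelium, heart and endoderm. ZFPM proteins do not bind DNA on their own. They dock onto a GATA zinc finger and bring in the NuRD deacetylase complex or CtBP corepressors, so that the same GATA factor can activate or repress. Teashirt proteins are zinc finger and homeobox repressors of trunk, kidney and nervous system development that also use CtBP. *NRIP1* encodes a corepressor of ligand-bound nuclear receptors, and *NRIP3* encodes a less studied protein named for the same kind of interaction.

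The libraries held between 19918970 and 21890549 counts. A floor of 3 counts, under which the level of a single library is not read, corresponds to 0.129 to 0.187 CPM (counts scaled to library size with TMM factors, which corrects for differences in library composition). All 10 chondrocyte markers were counted in every library. Their median log2 fold change of SZCs over DZCs was -1.11, and with TMM scaling 7 lay higher in both DZC libraries, as did 20.5% of all genes tested. By the exact test of edgeR, 2.93% of all genes tested were called at an FDR under 0.05, and 9.09% had an unadjusted p under 0.05. With libraries scaled by totals alone, 0 of the 10 markers were called. *MATN3*, a cartilage matrix gene, was called as higher in DZCs (edgeR exact test FDR 0.00212), with 5 at an unadjusted p under 0.05, 3 called by DESeq2, 8 by the exact test without DZC replicate 2 and 0 without either SZC library in turn. All 8 superficial zone markers passed the test as higher in SZCs, with the largest differences for *PRG4*, the lubricin gene, *EPHA3*, *VIT*, *WIF1*, *CREB5* and *THBS4*. The latter list was written with results of these samples known, so its direction is not independent evidence, and 6 of the 8 passed without either SZC library in turn, 7 in DESeq2 and 0 in the quasi-likelihood test of edgeR without a block. DZC replicate 1 stood apart from the other libraries, with 24.5% of its counts on *COL2A1* against 6.31% to 12.9% elsewhere, a TMM factor of 0.735 against 1.08 to 1.14, and 14683 genes detected against 15842 to 16058. Several markers of hypertrophic and bone-forming cells were high in DZC replicate 2 alone. There *MMP13* was counted 468 times against 0 in each of the other libraries, and the summed level of the 9 markers was 287 CPM against 26.6 to 112 CPM. Most of that sum was *SPP1* in every library, at 108 and 102 CPM in SZC replicates 1 and 2 and 18.9 and 201 CPM in the DZC replicates. By the exact test of edgeR, 0 of these markers were called with all libraries (2 at an unadjusted p under 0.05, and 1 called by DESeq2), 7 without DZC replicate 1 and 2 without DZC replicate 2. Leaving out a library also changed the share of all genes that the exact test called, to 6.67% without DZC replicate 1, 20.7% without DZC replicate 2, 0.436% without SZC replicate 1 and 1.13% without SZC replicate 2, and counts in these settings are to be read against those shares.

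*ZFPM2* (ENSBTAG00000001649), a cofactor needed for heart and gonad development, was counted many more times in SZCs than in DZCs. It had 959 and 763 counts in SZC replicates 1 and 2 against 64 and 108 in the DZC replicates. The corresponding levels were 43.6 and 32.9 CPM in SZCs and 3.98 and 4.84 CPM in DZCs, a mean of 38.2 ± 7.56 CPM (SD, n = 2) against 4.41 ± 0.608 CPM (SD, n = 2). Both SZC libraries lay far above both DZC libraries, and the gap was larger than the distance between replicates of either zone. The level in SZCs was 8.63-fold that in DZCs, a log2 fold change of 3.11 with a standard error (SE) of 0.40. In bulk libraries of this kind, fewer cells that express a gene and less RNA per cell cannot be told apart.

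Its relative *ZFPM1* (ENSBTAG00000015766), best known as the GATA1 cofactor of red cell and platelet precursors, showed no such separation. It had 92 and 83 counts in SZC replicates 1 and 2 against 110 and 71 in the DZC replicates, or 4.18 and 3.58 CPM against 6.84 and 3.18 CPM. The SZC values fell between the DZC values. The log2 fold change of -0.37 (SE 0.63) changed sign, to 0.29, without DZC replicate 1, and was 0.04 with totals-only scaling.

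The ratio of both cofactors within a library does not depend on how libraries are scaled, although its absolute size depends on gene length. The log2 ratio of *ZFPM2* to *ZFPM1* counts was 3.38 and 3.20 in SZCs against -0.78 and 0.61 in DZCs. It was thus 3.38 higher on average in SZCs, a 10.4-fold shift of the ratio towards *ZFPM2*, and DZC replicate 1 had the lowest value.

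**Figure D1:**
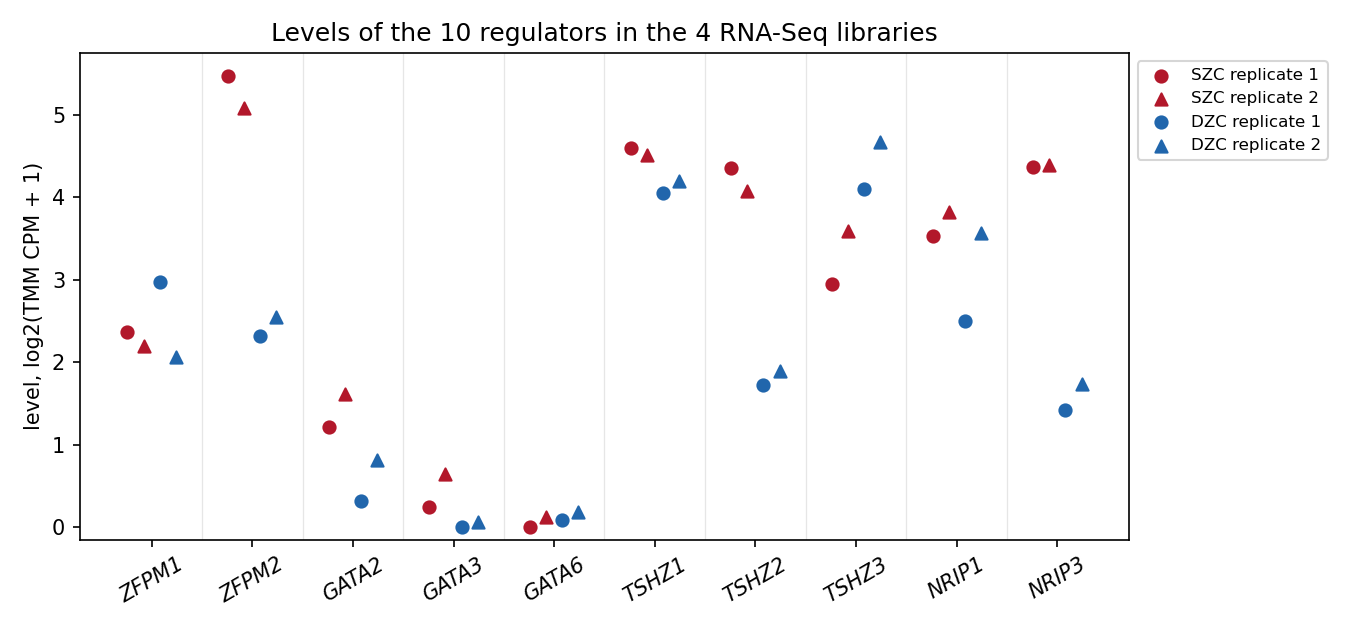
Levels of the 10 regulators, as log2(TMM CPM + 1) on the vertical axis, with a point for each of the 4 libraries (circles replicate 1, triangles replicate 2, red SZC, blue DZC). *ZFPM2*, *TSHZ2* and *NRIP3* show 2 separate pairs of points, *TSHZ3* has its SZC points below its DZC points, and *GATA3* and *GATA6* lie near 0 in every library.

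The GATA factors themselves were counted few times. *GATA2* (ENSBTAG00000019707), a factor of blood stem cells and endothelium, had 29 and 48 counts in SZC replicates 1 and 2 against 4 and 17 in the DZC replicates. These counts correspond to 1.32 and 2.07 CPM in SZCs and 0.249 and 0.762 CPM in DZCs. The SZC values lay above the DZC values, but the DZC libraries differed widely from each other. Its log2 fold change was 1.70 (SE 0.82), and it was 1.15 without DZC replicate 1 and 2.75 without DZC replicate 2.

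*GATA3* (ENSBTAG00000017243), known for its role in T cells, kidney and ear, had 4 and 13 counts in SZCs against 0 and 1 in DZCs. It did not reach the count needed for the test. With both libraries of a zone added, 17 counts against 1 gave a 14.4-fold higher level in SZCs, with an exact 95% interval from 2.26 to 603 that covers counting error only. *GATA6* (ENSBTAG00000005734), a factor of endoderm and heart, had 0 and 2 counts in SZCs against 1 and 3 in DZCs, at or under the floor, so no fold is given.

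*GATA4*, the factor that *ZFPM2* is best known to bind in heart and gonad, was close to absent from these counts, as were *GATA5* and *GATA1*. *GATA4* had 0 and 0 counts in SZCs against 1 and 3 in DZCs, *GATA5* was at 0 in all libraries, and *GATA1* had 1 count in SZC replicate 1 and 0 in the other libraries. *TRPS1*, an atypical GATA-type zinc finger repressor with a known role in growth plate chondrocytes, was the well counted member of this wider group. It had 1744 and 2226 counts in SZCs against 461 and 1329 in DZCs, at 79.2 and 95.9 CPM against 28.7 and 59.6 CPM. Both SZC libraries were above both DZC libraries, but *TRPS1* did not pass the test (log2 fold change 0.99, SE 0.45, edgeR exact test FDR 0.427). *NRIP2*, a relative of *NRIP1* by name, had 9 and 19 counts against 5 and 8 and was not tested. Without DZC replicate 2, 1 gene of this wider group was called. Within libraries, the log2 ratio of *ZFPM2* to *TRPS1* counts was -0.86 and -1.54 in SZCs and -2.85 and -3.62 in DZCs.

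**Figure D2:**
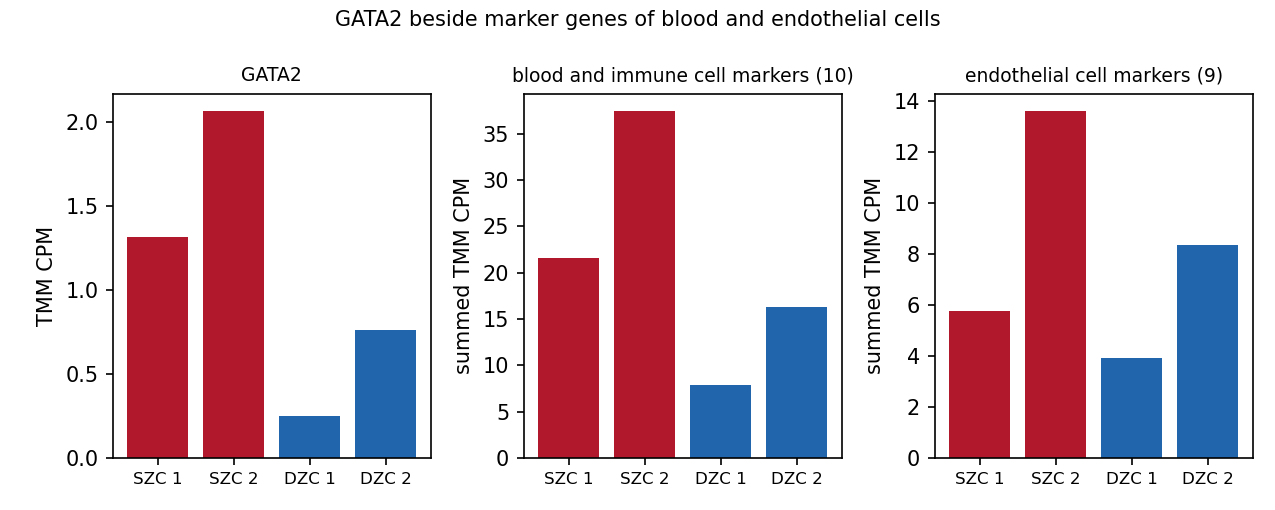
Level of *GATA2* (left) and summed levels of 10 blood and immune cell markers (middle) and 9 endothelial cell markers (right), in TMM CPM, with 1 bar per library and each axis starting at 0. *GATA2* and the sum of the blood markers, of which *CD14* is the largest part, share the same order of libraries, from DZC replicate 1 to SZC replicate 2.

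Because *GATA2*, *GATA3* and *ZFPM1* are also expressed by blood and endothelial cells, markers of those cells were read beside them. The 10 blood and immune markers summed to 21.6 and 37.5 CPM in SZCs and 7.90 and 16.3 CPM in DZCs, the same order of libraries as *GATA2*. The largest part of the sum in every library was *CD14*, at 12.0 and 16.1 CPM in SZCs against 3.92 and 6.59 CPM in DZCs. *CD68*, the next largest, had 3.18 and 6.72 CPM against 2.05 and 3.45 CPM and did not share that order. *PTPRC*, the pan-leukocyte marker, had 6 and 14 counts in SZCs against 0 and 9 in DZCs, and the T cell genes *CD3D* and *CD3E* had at most 3 counts in any library. The 9 endothelial markers summed to 5.77 and 13.6 CPM in SZCs and 3.92 and 8.34 CPM in DZCs, where the zones overlap, and *CDH5*, the endothelial cadherin, was counted 1 and 10 times against 0 and 7. Of the tested markers, 0 of 6 blood and 0 of 4 endothelial genes passed the exact test of edgeR, with 1 in each list at an unadjusted p under 0.05, and 0 of either list passed in DESeq2. Of the 6 blood genes, 3 lay above in both SZC libraries, against 21.0% of all genes tested, and 3 overlapped (median log2 fold change 1.40). Of the 4 endothelial genes, 1 lay above in both SZC libraries, 1 above in both DZC libraries and 2 overlapped (median 0.83). Without DZC replicate 2, 3 blood and 1 endothelial gene passed. The part of such cells in the *GATA2* and *GATA3* values was not tested.

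The 3 teashirt genes differed from each other across the zones. *TSHZ2* (ENSBTAG00000007917) had 431 and 370 counts in SZC replicates 1 and 2 against 37 and 61 in the DZC replicates. Its level was 19.6 and 15.9 CPM in SZCs and 2.30 and 2.73 CPM in DZCs. The zones lay far apart, and the mean of 17.8 ± 2.57 CPM (SD, n = 2) in SZCs was 7.02-fold that in DZCs, a log2 fold change of 2.81 (SE 0.46).

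*TSHZ1* (ENSBTAG00000000422), which is needed for the olfactory bulb and the middle ear in mice, had 513 and 506 counts in SZCs against 250 and 386 in DZCs. Its levels of 23.3 and 21.8 CPM in SZCs were above the 15.6 and 17.3 CPM in DZCs, but only by a small step. The log2 fold change was 0.46 (SE 0.36).

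*TSHZ3* (ENSBTAG00000002687), which directs smooth muscle differentiation in the ureter, went the other way. It had 148 and 258 counts in SZCs against 259 and 549 in DZCs, or 6.72 and 11.1 CPM against 16.1 and 24.6 CPM. Both DZC libraries lay above both SZC libraries, although replicates of a zone differed by more than for the other teashirt genes. DZCs had 2.28-fold the level of SZCs, a log2 fold change of -1.19 (SE 0.48), and the value stayed negative with each library left out, from -1.60 to -0.84, and with library totals alone, at -0.94.

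Within libraries the balance of the 3 teashirt genes differed between the zones. The log2 ratio of *TSHZ2* to *TSHZ3* counts was 1.54 and 0.52 in SZCs against -2.81 and -3.17 in DZCs, a mean shift of 4.02 or 16.2-fold. The ratio of *TSHZ2* to *TSHZ1* was steadier between replicates, at -0.25 and -0.45 in SZCs and -2.76 and -2.66 in DZCs, a 5.13-fold shift. The ratio of *TSHZ1* to *TSHZ3* also differed, at 1.79 and 0.97 in SZCs and -0.05 and -0.51 in DZCs. The zones did not overlap in any of the 3 ratios.

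**Figure D3:**
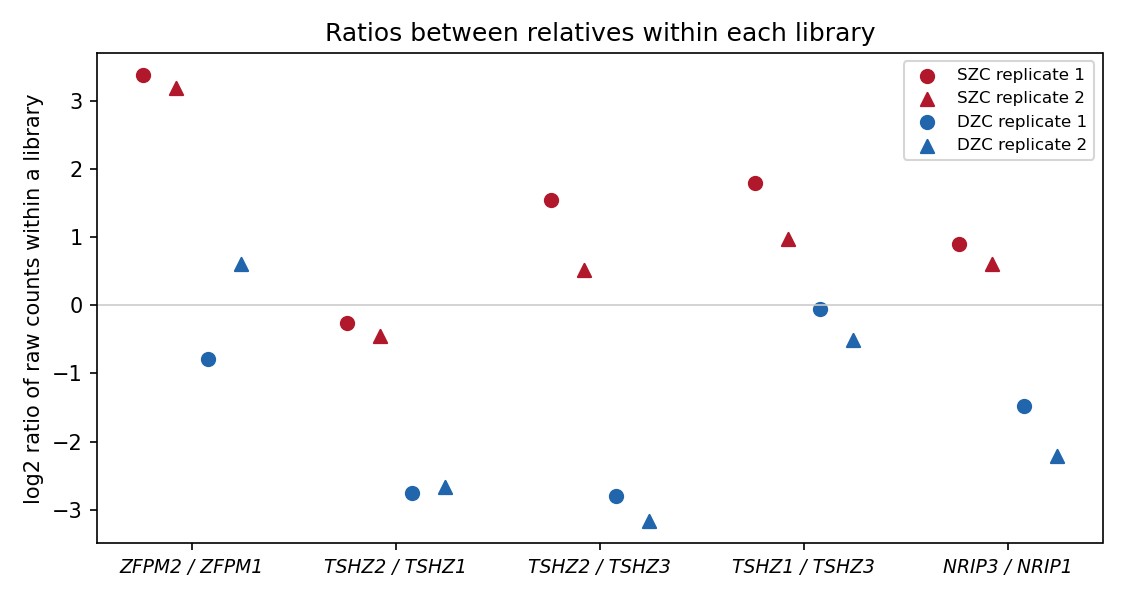
Log2 ratio of raw counts within each library (vertical axis), for 5 pairs of genes of like name and 4 libraries. *NRIP3* and *NRIP1* are paired by name only. All 5 ratios are higher in both SZC libraries than in either DZC library, with the widest gap for *TSHZ2* over *TSHZ3*.

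*NRIP3* (ENSBTAG00000013366) had the largest log2 fold change between the zones of the 8 genes with enough counts to fit. It had 434 and 465 counts in SZC replicates 1 and 2 against 27 and 52 in the DZC replicates. The levels were 19.7 and 20.0 CPM in SZCs and 1.68 and 2.33 CPM in DZCs. The SZC replicates were nearly equal, and their mean of 19.9 ± 0.224 CPM (SD, n = 2) was 9.83-fold the DZC level, a log2 fold change of 3.30 (SE 0.46).

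*NRIP1* (ENSBTAG00000047293) differed less and overlapped. It had 232 and 306 counts in SZCs against 75 and 242 in DZCs, or 10.5 and 13.2 CPM against 4.67 and 10.8 CPM. DZC replicate 2 reached the level of SZC replicate 1, and only DZC replicate 1 was low. The log2 fold change was 0.61 (SE 0.57), with 0.13 when DZC replicate 1 was left out and 1.36 when DZC replicate 2 was left out. The log2 ratio of *NRIP3* to *NRIP1* counts was 0.90 and 0.60 in SZCs and -1.47 and -2.22 in DZCs, a 6.06-fold shift.

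Of the 10 genes, 8 had enough counts to be tested. With a threshold of 0.05 on the FDR (the Benjamini–Hochberg adjusted p-value over all genes), the exact test of edgeR called 3 of the 8, *ZFPM2*, *TSHZ2* and *NRIP3*, all higher in SZCs. These are the genes whose difference chose the list, so nothing is read from that count. Of all 12857 genes tested, 2.93% were called, 2.23% as higher in SZCs and 0.700% as higher in DZCs, so that 76.1% of the calls were higher in SZCs (86.7% with libraries scaled by totals alone). None of the other 5 was called by this test, with 2 at an unadjusted p under 0.05, as were 9.09% of all genes tested, and none by DESeq2. The quasi-likelihood test of edgeR without a block called 0 of all genes, *ZFPM2*, *TSHZ2* and *NRIP3* included, with 1126 genes and 4 of the 8 at an unadjusted p under 0.05. Among the 8, both SZC libraries lay above both DZC libraries for 5 genes and below them for 1 gene, *TSHZ3*, where 21.0% and 20.5% of all genes tested showed the same patterns. *TSHZ2* was no longer called when SZC replicate 1 was left out, *TSHZ3* was called when DZC replicate 1 was left out, where 6.67% of all genes were, and *GATA2* and *NRIP1* when DZC replicate 2 was left out, where 20.7% of all genes were. In each case the lone library of a zone was assumed to vary like those of the other zone. Markers of synovial and tendon fibroblasts summed to 16565 and 24744 CPM in SZCs against 4345 and 13706 CPM in DZCs, a sum made up mostly of *COL1A1*, *COL1A2* and *COL3A1*. Of the 7 tested, 2 lay above in both SZC libraries, 2 above in both DZC libraries and 3 overlapped (median log2 fold change 0.19), with 0 of 7 tested called by edgeR's exact test or DESeq2 and 3 at an unadjusted p under 0.05 in the former. Those of smooth muscle and pericytes summed to 2587 and 2164 CPM against 2426 and 2032 CPM, most of it *CSPG4* in every library. Of those 7, 3 lay above in both SZC libraries and 4 overlapped (median 1.37), with 0 called by edgeR's exact test or DESeq2 and 2 at an unadjusted p under 0.05 in the former. Without DZC replicate 2, 4 genes of each list were called, and 1 smooth muscle gene was called without SZC replicate 2 and 1 without DZC replicate 1. The part of such cells in the levels of the 10 genes was not tested.

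**Figure D4:**
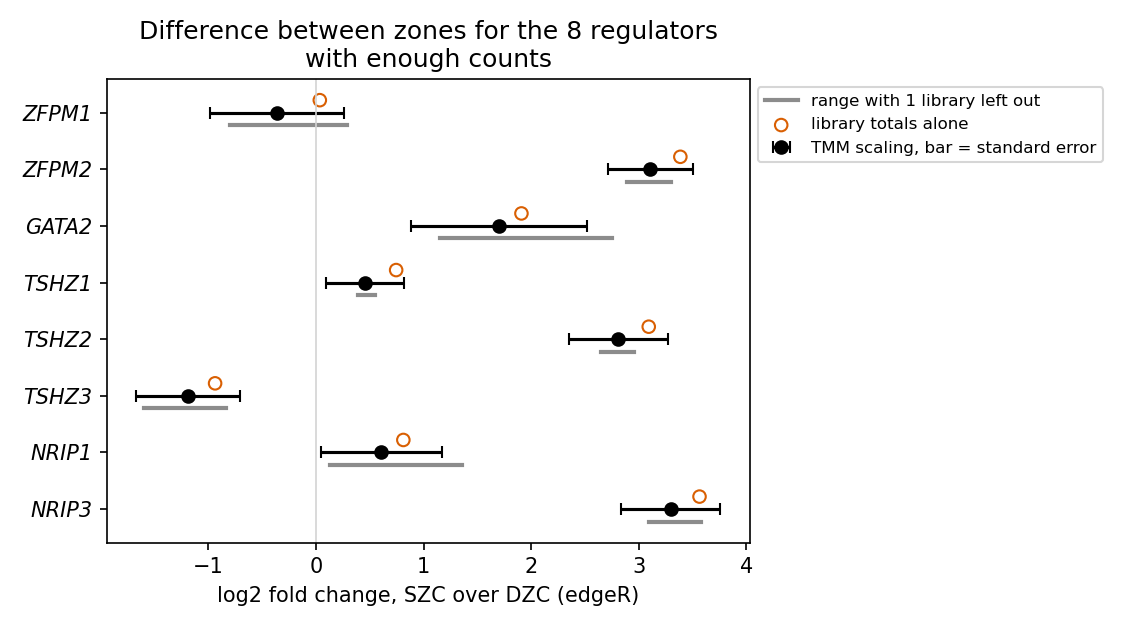
Log2 fold change of SZCs over DZCs (horizontal axis) for the 8 regulators tested, with TMM scaling (black, bars standard errors), with library totals alone (open orange circles), and the range when each library is left out in turn (grey lines). *ZFPM2*, *TSHZ2* and *NRIP3* sit between 2.65 and 3.58 throughout, *TSHZ3* stays below 0, and the range of *ZFPM1* spans 0.

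*ZFPM2* and *TSHZ2* were both lower in SZC replicate 2 than in SZC replicate 1 and higher in DZC replicate 2 than in DZC replicate 1, and their log2 count ratio stayed between 0.79 and 1.15 over the 4 libraries. Profiles were compared by the Euclidean distance between log2(CPM + 1) values of the 4 libraries, each gene centred on its mean. Neighbours are thus genes of a like difference between zones on that scale only, where the added 1 shrinks differences at low CPM. Nearest to *ZFPM2* were *GLT8D2*, a glycosyltransferase gene (distance 0.217), *TENM2*, a teneurin adhesion gene (0.221), and an unnamed gene, ENSBTAG00000046308 (0.274). Nearest to *TSHZ2* were *HOPX*, which encodes a homeodomain protein that does not bind DNA (0.062), the fatty acid binding gene *FABP4* (0.117) and the complement gene *C2* (0.185), with *ZFPM2* at rank 26 (0.447). Nearest to *NRIP3* were the same unnamed gene (0.236), *PLCXD3* (0.253) and *ZFPM2* itself (0.305). The fitted log2 fold changes were 2.82 for *GLT8D2*, 3.72 for *TENM2*, 4.01 for the unnamed gene and 2.96 for both *HOPX* and *FABP4*. They were 4.16 for *C2* and 6.36 for *PLCXD3*, which had 0 and 0.134 CPM in DZCs.

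Complexes through which these regulators act were then read in the same test, from lists written with earlier results of these data known. For the NuRD complex, which ZFPM proteins recruit, all 13 members were tested and 0 were called by the exact test of edgeR, with 0 at an unadjusted p under 0.05 and 0 called by DESeq2. Their log2 fold changes ran from -0.46 to 0.51, with a median of -0.04, the same as that of all genes tested (-0.04). *CHD4*, the remodelling ATPase, was at 322 and 282 CPM in SZCs and 264 and 279 CPM in DZCs. *RBBP7*, a histone-binding subunit, was at 117 and 102 CPM against 111 and 115 CPM, with overlapping zones.

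CtBP corepressors, shared partners of ZFPM, TSHZ and NRIP1 proteins, gave 0 calls among 8 tested, with 0 at an unadjusted p under 0.05 in edgeR and 0 calls in DESeq2. Without DZC replicate 2, 2 of the 8 were called, against 20.7% of all genes. *CTBP1* was at 89.5 and 67.5 CPM in SZCs and 93.5 and 58.1 CPM in DZCs, and *CTBP2* at 76.9 and 69.6 CPM against 91.0 and 79.7 CPM. The widest difference in the list was that of *ZEB2*, a zinc finger repressor that binds CtBP, named after its values were seen. It had 367 and 845 counts in SZCs against 11 and 374 in the DZC replicates, so that DZC replicate 1 alone was low (log2 fold change 1.60, SE 1.18).

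Among class II deacetylases and the corepressors around HDAC3, 1 of 12 genes was called, against 2.93% of all genes tested. *HDAC9*, a class II deacetylase that NRIP1 can bind, had 559 and 778 counts in SZCs against 107 and 213 in DZCs. Its levels were 25.4 and 33.5 CPM in SZCs and 6.66 and 9.55 CPM in DZCs, with no overlap. It rose in SZCs with a log2 fold change of 1.86 (SE 0.41, edgeR exact test FDR 0.00132). The call was lost with either SZC library left out (FDR 0.275 without replicate 1 and 0.585 without replicate 2, edgeR exact test). The other 11 genes were not called, 2 of the 12 were called without DZC replicate 2, and the median of the list was 0.04.

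Of 26 nuclear receptors of the kind that NRIP1 binds, 17 were tested and 1 was called, with 3 at an unadjusted p under 0.05. Over all genes tested, 2.93% were called and 9.09% were at an unadjusted p under 0.05. *ESR1*, the estrogen receptor alpha gene, had 43 and 55 counts in SZCs against 3 and 11 in DZCs. Both SZC libraries were above both DZC libraries, and the log2 fold change was 2.61 (SE 0.79, edgeR exact test FDR 0.0396). That call rests on low counts, and it was lost in DESeq2 (FDR 0.157) and with totals-only scaling (FDR 0.109, edgeR exact test). Leaving out either SZC library gave an FDR of 1, and leaving out DZC replicate 1 gave 0.115 (edgeR exact test). The median of the 17 receptors was -0.12, and 2 were called without DZC replicate 1 and 5 without DZC replicate 2, against 6.67% and 20.7% of all genes. The other 16 receptors did not pass, among them *RARA*, a retinoic acid receptor, at 150 and 84.3 CPM in SZCs against 51.8 and 60.0 CPM in DZCs, and *VDR*, the vitamin D receptor, at 9.86 and 13.9 CPM against 34.8 and 16.7 CPM. Both were named after their values were seen. Of 8 receptor coactivators, 7 were tested and 0 were called by the exact test of edgeR or by DESeq2, with 0 at an unadjusted p under 0.05 and a median of 0.63. Without DZC replicate 2, 3 of the 7 were called, against 20.7% of all genes. *CREBBP* and *EP300*, acetyltransferases used by many transcription factors, were at 160 and 133 CPM and at 105 and 94.7 CPM in SZCs, against 85.1 and 97.3 CPM and 49.8 and 77.3 CPM in DZCs.

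**Figure D5:**
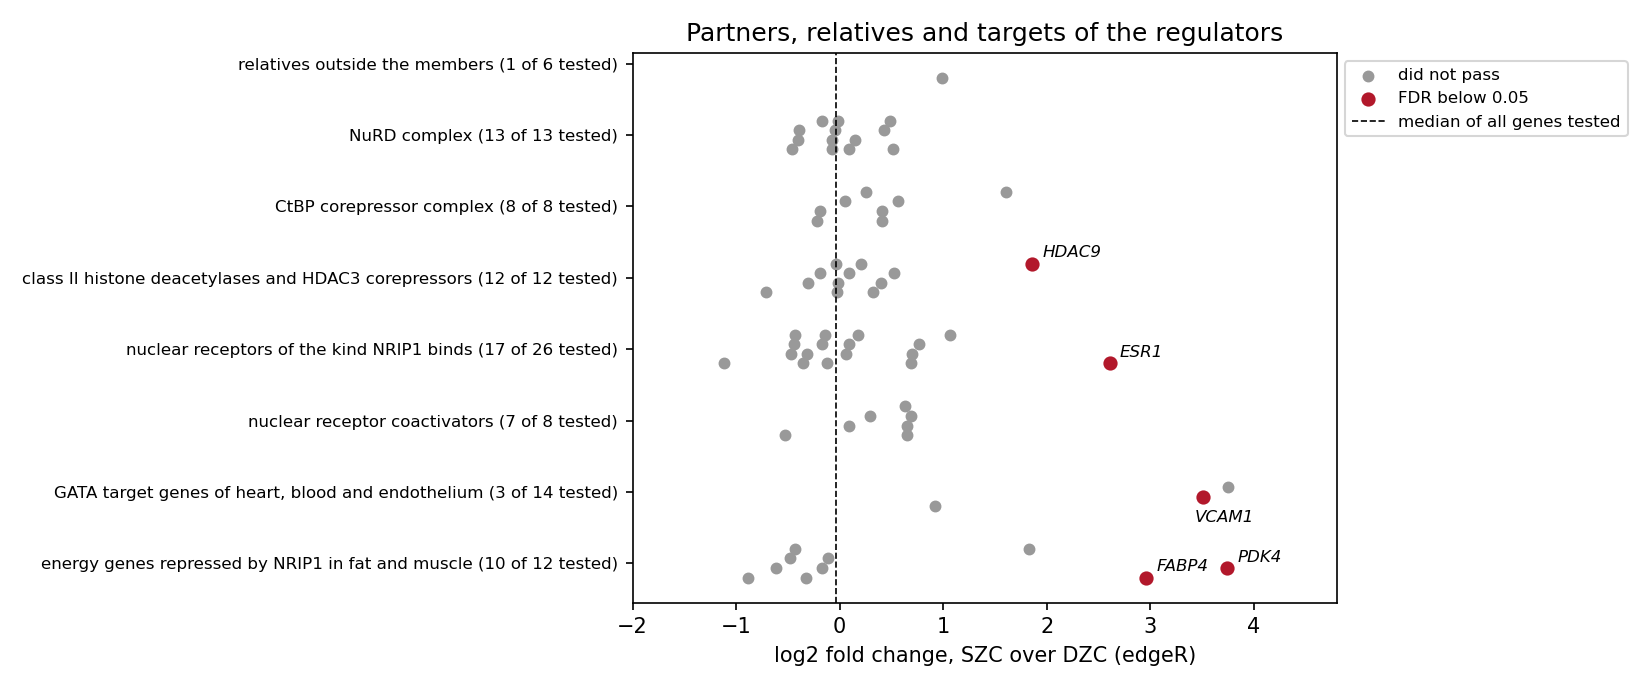
Log2 fold change of SZCs over DZCs (horizontal axis) for the tested genes of 8 lists of relatives, partners and targets, with 1 point per gene, genes called by edgeR's exact test in red and named, and the median of all genes tested as a dashed line. NuRD members lie on both sides of the dashed line, and the 5 called genes (*HDAC9*, *ESR1*, *VCAM1*, *FABP4* and *PDK4*) all lie to the right, higher in SZCs.

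Genes that GATA factors are known to switch on in heart, blood and endothelium were mostly too low to test. Only 3 of 14 were tested, all 3 at an unadjusted p under 0.05, and 1 was called. Over all genes tested, 9.09% were at an unadjusted p under 0.05 and 2.93% were called. *VCAM1*, a cell adhesion gene that synovial and other fibroblasts also express, had 9994 and 5765 counts in SZCs against 304 and 950 in DZCs. Its levels of 454 and 248 CPM in SZCs stood far above the 18.9 and 42.6 CPM in DZCs, a log2 fold change of 3.51 (SE 0.54, edgeR exact test FDR 1.80e-06). *KIT*, the stem cell factor receptor gene, was counted 18 and 60 times against 0 and 5, and *FLI1*, an ETS factor gene, 532 and 518 times against 211 and 256, and neither passed. Both were named after their values were seen. The 11 genes not tested, among them the heart hormone gene *NPPA*, had at most 11 counts in any library.

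Energy genes that NRIP1 is known to hold down in fat and muscle gave 2 calls among 10 tested, both higher in SZCs. Over all genes tested, 2.93% were called, 2.23% as higher in SZCs. *FABP4*, a fatty acid carrier, had 268 and 219 counts in SZCs against 19 and 35 in DZCs (log2 fold change 2.96, SE 0.54, edgeR exact test FDR 3.32e-05). *PDK4*, the kinase that turns off pyruvate dehydrogenase, was counted 222 and 162 times against 7 and 18 (log2 fold change 3.74, SE 0.65, edgeR exact test FDR 1.17e-05). Neither gene overlapped between zones. *FABP4* lost its call with either SZC library left out (FDR 0.370 without replicate 1 and 0.0710 without replicate 2) and *PDK4* without SZC replicate 1 (FDR 0.187, all by the exact test of edgeR). The other 8 genes did not pass, and the median of the 10 was -0.25. Of the 10, 3 were at an unadjusted p under 0.05, against 9.09% of all genes tested. Without DZC replicate 2, 4 of the list were called, against 20.7% of all genes. In the quasi-likelihood test of edgeR without a block, which called no gene at all, *HDAC9*, *ESR1*, *VCAM1*, *FABP4* and *PDK4* had adjusted p-values from 0.129 to 0.340.

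Genes next to the 10 regulators on the chromosome were also read, using the order of protein-coding genes in RefSeq for assembly ARS-UCD2.0, which is not the build of the counts. Of 20 flanking genes, 15 were found by name, 14 were tested and 1 was called, against 2.93% of all genes tested. That gene was *SCUBE2*, a secreted hedgehog-release protein gene next to *NRIP3*, which had 3268 and 2489 counts in SZCs against 657 and 573 in DZCs. Its levels were 148 and 107 CPM against 40.9 and 25.7 CPM, a log2 fold change of 1.94 (SE 0.41, edgeR exact test FDR 0.000525). The call was lost without SZC replicate 1 (FDR 0.407, edgeR exact test) and in the quasi-likelihood test of edgeR without a block (FDR 0.206). *TMEM9B*, on the other side of *NRIP3*, had 41.6 and 46.1 CPM in SZCs and 59.8 and 62.0 CPM in DZCs and did not pass. The neighbours of *ZFPM2*, *OXR1* and *LRP12*, and those of *TSHZ2*, *ZFP64* and *ZNF217*, did not pass either, with log2 fold changes between -0.38 and 0.32. In the same annotation, 5 of the 10 regulators (*ZFPM2*, *GATA3*, *TSHZ2*, *NRIP1* and *NRIP3*) have a span that other gene models overlap. Strand was not used in counting. Whether such models overlap exons in the annotation used for the counts was not checked, so their part in the counts is not known.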

How the data were processed

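Libraries were made by the authors from cultured bovine SZCs and DZCs with the SMART-Seq v4 kit and read as 75 bp single ends. The authors aligned reads with STAR 2.5.2b to the UMD 3.1 genome (Ensembl annotation) and deposited raw counts per gene, taken without regard to strand. Blank gene names were filled for 8 genes from the names in the authors' comparison table. That table also holds their fold changes and FDR values, which were not used. ATAC-Seq samples were not analysed here.

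The 4 RNA-Seq libraries held 19918970 to 21890549 counts. Of 24596 genes, 12857 passed the default expression filter of edgeR 4.0.16 (R 4.3.3). Counts were scaled by TMM and tested with edgeR's exact test, as in the study's methods, and p-values were adjusted over all genes tested (Benjamini–Hochberg, threshold 0.05). The procedure was tested on simulated data. CPM are TMM-scaled, standard errors come from edgeR's fit, and the count interval of *GATA3* is an exact 95% interval. Intervals and floors cover counting error only. Alternatives were quasi-likelihood tests without and with a replicate block, DESeq2 1.42.0, other filters and scalings, and leaving out each library. The replicates of a zone differed by more than sampling noise (chi-square per degree of freedom 61.9 for SZCs and 303 for DZCs).

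The 10 genes and all gene lists were chosen with earlier results of these data known. The text names the 10 genes, list genes that passed (at most the 6 with the largest change, and where none passed at most the 2 with the highest mean CPM) and the 3 nearest profiles of *ZFPM2*, *TSHZ2* and *NRIP3*. Outside this rule, *ZEB2*, *RARA*, *VDR*, *KIT*, *FLI1*, *NPPA*, the relatives *GATA1*, *GATA4* and *GATA5*, and the markers *COL2A1*, *MMP13*, *PTPRC*, *CDH5*, *CD3D*, *CD3E* and *COL1A2* were named after their values were seen. Flanking genes were chosen after the data were seen. Gene positions and sequences are not given, because the annotation used (RefSeq, ARS-UCD2.0) is of another build than the counts.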

Additional observations from a re-analysis of the deposited data

How the results depend on the processing

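With all libraries kept, 53 of 56 log2 fold changes of the regulators moved by less than the spread between replicates and 55 kept their sign. The 3 that moved were those of *TSHZ1* (0.74), *TSHZ2* (3.09) and *NRIP3* (3.57) with libraries scaled by totals alone, which shifted the median of all genes by 0.30, and *ZFPM1* changed sign there (0.04). *GATA3* and *GATA6* were not fitted, so no alternative value is given for them. The quasi-likelihood test of edgeR without a block called 0 genes, in either direction, hence 0 of the 10 regulators and 0 genes of every list, against 377 genes with the exact test, although 1126 genes and 4 of the regulators were at an unadjusted p under 0.05. Scaling by totals alone called 44 genes as higher in DZCs, against 90. The nuclear receptor list went from 1 call to 0 in DESeq2, without a filter, with totals alone and with the replicate block. The replicate block gave 347 called genes, with 277 also called by the exact test, and called 3 of the regulators. Same-numbered libraries deviated together (correlation 0.42 over genes), but with 2 numbers and no label tying them to a joint this is a hint from the data, not the design.

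Leaving out 1 library gave 58 (without SZC replicate 1) to 2725 (without DZC replicate 2) genes called, 52 to 1607 of them higher in SZCs and 6 to 1118 higher in DZCs, and 2 to 5 of the regulators. *TSHZ2* lost its call without SZC replicate 1. The list calls ranged from 0 to 1 for relatives, 0 to 2 for CtBP, 0 to 2 for class II deacetylases, 0 to 5 for nuclear receptors, 0 to 3 for coactivators, 1 to 2 for GATA targets and 0 to 4 for energy genes, and NuRD stayed at 0. The highest value of each list came without DZC replicate 2, for GATA targets also without DZC replicate 1. Log2 fold changes ranged from -0.80 to 0.29 for *ZFPM1*, 1.15 to 2.75 for *GATA2* and 3.09 to 3.58 for *NRIP3*. Of 32 such values, 28 moved by less than the replicate spread. The causes were not tested. At a floor of 3 counts per library, *GATA6* and the DZC levels of *GATA3* are not measurable at this depth, and the pooled *GATA3* ratio rests on 1 DZC count.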
